A study of Rattus norvegicus with 20 samples.

Results

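Cd44, the main cell surface receptor for hyaluronan, and 8 further genes that make, cut or bind this sugar polymer were followed through 5 regions of the injured rat nervous system. The genes were chosen by symbol alone: Cd44 (ENSRNOG00000006094), Hmmr (ENSRNOG00000059894), Tnfaip6 (ENSRNOG00000050792), Has1 (ENSRNOG00000010994), Has2 (ENSRNOG00000004854), Has3 (ENSRNOG00000059362), Hyal1 (ENSRNOG00000015858), Hyal2 (ENSRNOG00000031420) and Hyal3 (ENSRNOG00000016093). All 9 were found once each among the 30443 genes of the table, and the rule itself uses no measured value, although earlier results of these data were known when it was set. RNA came from 4 wild-type female Long-Evans rats, an outbred strain, aged about 6 to 8 months. Every rat had a hemi-contusion of the spinal cord at cervical level 4, set to a displacement of 0.7 mm, and later an electrode array in the motor cortex opposite the injury. Then 2 rats received current for about a week at 80% of movement threshold (5 h a day, 10 Hz, 5 min on and 2 min off), and 2 control rats were connected without current. Region 1 was subcortical white matter under the implant, region 2 the matching block of the other hemisphere, region 3 spinal cord rostral to the lesion, region 4 the lesion and region 5 cord caudal to it, so each region gave 2 stimulated and 2 control libraries. No uninjured or unimplanted rat is among these libraries.

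Hyaluronan is a long, unsulfated glycosaminoglycan that fills the space between cells of brain and spinal cord and carries proteoglycans such as aggrecan and versican. It is spun out through the plasma membrane by the synthases Has1, Has2 and Has3, cut by hyaluronidases, and bound by receptors that link it to the cytoskeleton. After injury of the central nervous system, hyaluronan is known to be broken into fragments and Cd44 is known as a marker of reactive astrocytes, microglia and infiltrating macrophages.

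Values are FPKM, fragments per kilobase of transcript, scaled to the number of mapped reads, so levels can be compared between genes per length. Library medians of log2 FPKM over the genes kept ranged from 2.23 to 2.69, and no libraries were identical. Both regions labelled white matter held RNA of cortical neurons: Slc17a7, the vesicular glutamate transporter of cortical excitatory neurons, averaged 281 and 265 FPKM in regions 1 and 2 against 0.449 to 4.06 in the cord regions. The summed FPKM of 4 oligodendrocyte genes averaged 1800 in region 1, 931 in region 2 and 7617 to 9006 in the cord. The part of this neuronal RNA in the differences between tissues was not tested. In bulk tissue, fewer cells of a type and less RNA per cell cannot be told apart. The second stimulated rat stood apart in white matter: its 4 T cell genes summed to 4.50 in region 1 and 3.04 in region 2, against 0.40 to 0.58 FPKM in all other libraries, and its 8 microglia and macrophage genes summed to 484 in region 2, against 57.1 to 74.6 in the other 3 rats. Results that rest on this rat are given with and without it, except for correlations, which were taken over all libraries only.

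Cd44 spanned the widest range of the 9 genes. In region 4, at the lesion, the controls held 44.2 and 37.9 FPKM and the stimulated rats 42.4 and 27.8. Region 5 held 35.4 and 32.1 in controls and 34.0 and 39.3 after stimulation, and region 3 held 21.7 and 14.5 in controls and 19.3 and 16.7 after stimulation. Every library of regions 4 and 5 was above every library of region 3. In region 1, under the implant, Cd44 stood at 8.27 in both controls and at 17.2 and 26.7 FPKM in the stimulated rats. In region 2 it stood at 1.72 and 2.07 in controls and 1.93 and 9.72 after stimulation, so that 3 of 4 rats were near 2 FPKM and the second stimulated rat was far above them. From region 4 through 5, 3 and 1 to 2, the means were 38.1 ± 7.32, 35.2 ± 3.01, 18.0 ± 3.12, 15.1 ± 8.79 and 3.86 ± 3.91 FPKM (SD, n = 4 each), which puts the highest region 9.86-fold above the lowest. Without the second stimulated rat the means of regions 4 and 2 were 41.5 ± 3.24 and 1.91 ± 0.177 (SD, n = 3), or 21.8-fold apart. Among the genes kept, the Cd44 mean exceeded 92.7% of the others in region 4 and 41.7% in region 2.

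**Figure D1:**
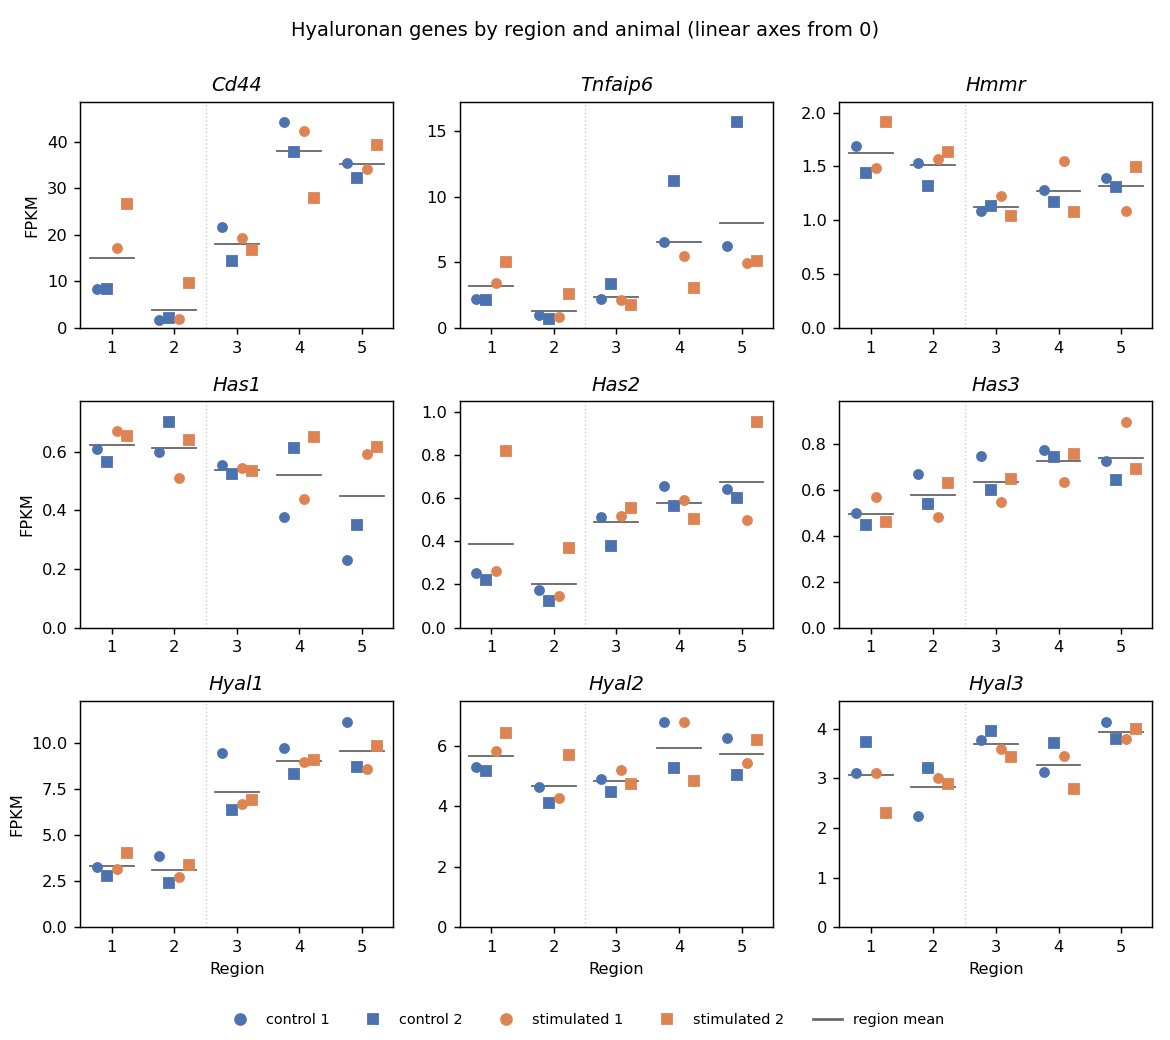
Expression of the 9 genes in FPKM (linear axes that start at 0) by region; each point is 1 library, colour gives the arm, shape the animal and the grey line the mean of 4 libraries. Cd44 runs from 1.72 in a control library of region 2 to 44.2 in a control library of region 4, while Has1, Has2 and Has3 stay below 1 FPKM in all 20 libraries.

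Differences were tested with limma on log2 FPKM, with p-values adjusted by the Benjamini-Hochberg method over the 15210 genes that reached 1 FPKM in any library, and passed at an adjusted p under 0.05. Region contrasts used all 20 libraries and both arms. The main model had no term for the rat, so libraries of the same rat entered its SE and p-values as independent. White matter held less Cd44 than spinal cord by limma (log2 difference -2.22 ± 0.28 SE, adjusted p = 8.51e-07), and without the second stimulated rat the log2 difference was -2.72. The background for this contrast was high: 47.1% of all genes were lower and 25% were higher in white matter, with a median log2 difference of -0.18. After quantile normalization 5054 genes were higher and 6018 lower in place of 3808 and 7169, and the median of all genes moved to -0.04.

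Within white matter, Cd44 was higher under the implant than on the other side in each of the 4 rats, by 2.27 and 2.00 on the log2 scale in controls and by 3.16 and 1.46 in stimulated rats. The mean difference of 2.22 ± 0.43 (SE), or 4.66-fold, passed (limma, adjusted p = 0.0064), where 6.86% of all genes were higher and 1.76% lower in region 1 (943 higher and 841 lower after quantile normalization, in place of 1043 and 267). Without the second stimulated rat, where 3674 of all genes passed in place of 1310, the Cd44 log2 difference was 2.47 (limma, adjusted p = 2.5e-05). Leaving out any other single rat ended the call, with log2 differences of 1.91 to 2.29 and limma adjusted p between 0.0697 and 0.193. The implant side also held more marker RNA of several cell types: 4 of 5 fibroblast genes tested, 2 of 5 astrocyte genes, 1 of 8 microglia and macrophage genes and all 4 oligodendrocyte genes were higher in region 1 by the same test. Col1a2, also on the fibroblast list, was listed at the floor of 0.1 in every library. Col1a1 averaged 17.6 in region 1 (7.98 to 38.9) and 3.53 in region 2 (1.09 to 9.85). Their part in the Cd44 difference was not tested.

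Along the cord, Cd44 was higher at the lesion than rostral to it in all 4 rats (log2 difference 1.07 ± 0.43 SE, limma, adjusted p = 0.087), and higher caudal than rostral in all 4 (0.98 ± 0.43 SE, adjusted p = 0.18). Neither passed, although the groups did not overlap. Without the second stimulated rat both did: 1.18 with a limma adjusted p of 0.0022 and 0.89 with 0.0377. In that setting 4909 and 1237 of all genes passed, in place of 2984 and 657. After quantile normalization region 4 passed as well (1.12, adjusted p = 0.0439). Of all genes, 6.78% were higher and 12.8% lower in region 4 than in region 3 (2116 higher and 2487 lower after upper-quartile scaling, in place of 1031 and 1953), and 2.77% were higher and 1.55% lower in region 5 than in region 3 (435 and 674 after quantile normalization, in place of 422 and 235). Values without overlap were seen for 28.8% of all genes between regions 4 and 3 and for 25.5% between regions 5 and 3. Between regions 4 and 5, Cd44 differed by 0.09 (limma, adjusted p = 0.92). There 0.934% of all genes were higher and 7.06% lower in region 4 (195 and 275 after quantile normalization, in place of 142 and 1074), and 0 of the 6 genes tested here passed or had an unadjusted p under 0.05. In the order of regions 4, 5, 3, 1 and 2, the only neighbours whose difference passed with all 4 rats were regions 1 and 2, and regions 3 and 1 did not pass (0.42 ± 0.43 SE, limma, adjusted p = 0.44).

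The summed microglia and macrophage list and the summed astrocyte list varied along with Cd44 but in a different order of regions. The microglia and macrophage sum was highest in region 4, with 264 to 596 FPKM, and overlapped between region 5 (243 to 306) and region 1 (154 to 453), where Cd44 did not overlap. The astrocyte sum was 1911 to 2704 in region 4 and 2233 to 2580 in region 5, above the 1227 to 1671 of region 3 and the 645 to 1223 of region 1. Gfap led that sum, with means of 582, 228, 1037, 1755 and 1910 FPKM in regions 1 to 5. Slc1a3, on the same list, went the other way, with 127, 115, 49.5, 43.0 and 40.7. Of the 5 astrocyte genes, 4 were lower and 1 higher in white matter, where 47.1% and 25% of all genes were. In region 4 the stimulated rat with the lowest Cd44, 27.8 FPKM, also had the lowest sums of both lists, 264 and 1911. Their part in the Cd44 levels was not tested.

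**Figure D2:**
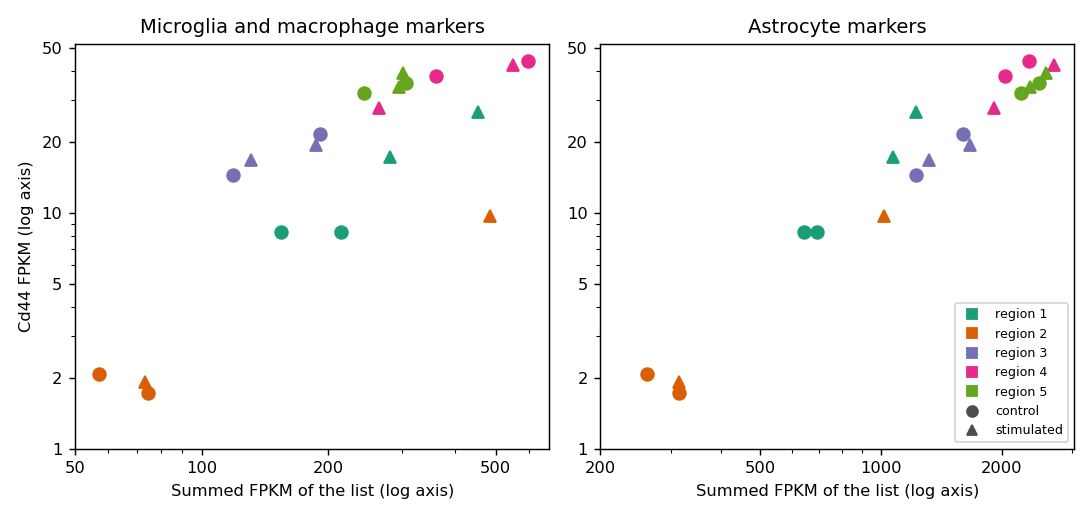
Cd44 in FPKM against the summed FPKM of 8 microglia and macrophage genes and of 5 astrocyte genes (all axes logarithmic); each point is 1 library, colour gives the region and shape the arm. The single region 2 library with a microglia and macrophage sum of 484 holds 9.72 FPKM of Cd44, while region 5 libraries with sums of 243 to 306 hold 32.1 to 39.3.

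The genes whose log2 FPKM followed Cd44 most closely over the 20 libraries, which come from 4 rats, were Adamts9, a protease of matrix proteoglycans, with a Pearson r of 0.992, Lgals3, which encodes galectin-3, with 0.990, Tsku, a small leucine-rich proteoglycan, with 0.990, LOC103692025 with 0.989 and Plod1, a lysyl hydroxylase of collagen, with 0.987. Once each region's mean was removed, their r with Cd44 was 0.934 to 0.969. Every r includes the second stimulated rat, and none was taken without it. In regions 1 and 2 its Cd44 was 26.7 and 9.72 FPKM, against region means of 15.1 and 3.86. Lgals3 averaged 33.5, 4.29, 54.1, 204 and 179 FPKM in regions 1 to 5, in the same order of regions as Cd44. Among the genes followed here, Has2 was the closest to Cd44, with r of 0.920 and 0.818 after removal of region means, and Has1 had the lowest r, -0.35. After removal of region means the r of Has1 was 0.07, and the lowest was that of Hyal3, -0.18.

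To set the Cd44 gene beside Tnfaip6, which was also lower in white matter, and Hmmr, which was higher there, the 250 bases before the RefSeq start of each are shown. They were read from the later rat assembly GRCr8 rather than the Rnor6 build behind the table. Capitals mark matches, on either strand, to 5 motifs, and no matches overlapped. The AP-1 site was searched as TGANTCA and the CCAAT box by its name. The TATA box was searched as TATAAA and the GC box as GGGCGG. An element known from cell cycle genes was searched as TTTGAA.
Cd44 (chr3:109699425-109699674, minus strand): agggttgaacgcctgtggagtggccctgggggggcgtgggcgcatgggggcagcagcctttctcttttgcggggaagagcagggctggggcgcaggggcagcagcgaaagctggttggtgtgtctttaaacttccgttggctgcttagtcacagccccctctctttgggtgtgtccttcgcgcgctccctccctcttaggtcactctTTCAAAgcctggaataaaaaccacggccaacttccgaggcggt
Tnfaip6 (chr3:56911148-56911397, plus strand): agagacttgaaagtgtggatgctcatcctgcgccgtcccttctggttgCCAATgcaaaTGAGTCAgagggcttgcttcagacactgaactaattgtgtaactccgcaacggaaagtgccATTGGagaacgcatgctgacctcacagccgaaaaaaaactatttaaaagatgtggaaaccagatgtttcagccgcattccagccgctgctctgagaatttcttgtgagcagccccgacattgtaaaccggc
Hmmr (chr10:25665216-25665465, minus strand): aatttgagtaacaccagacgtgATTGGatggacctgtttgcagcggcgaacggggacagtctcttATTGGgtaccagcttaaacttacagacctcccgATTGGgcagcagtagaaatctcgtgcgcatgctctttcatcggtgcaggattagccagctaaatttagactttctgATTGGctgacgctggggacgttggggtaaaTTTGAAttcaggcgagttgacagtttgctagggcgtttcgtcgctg
Of 33469 such windows, 6.34% hold the AP-1 letters, 34.02% CCAAT, 12.93% TATAAA, 30.47% GGGCGG and 16.2% TTTGAA. The Cd44 window holds 1 TTTGAA match and none of the other 4. The Tnfaip6 window holds 1 AP-1 match, TGAGTCA, and 2 CCAAT matches. The Hmmr window holds 4 CCAAT matches, a number reached by 0.5647% of windows, and 1 TTTGAA match. These are matches of letters only. Windows were found for 7 of the 9 genes.

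Hmmr was higher in white matter than in cord, where Cd44 was lower. Its r with Cd44 was -0.28 over the 20 libraries and 0.41 after removal of region means. Like Cd44, it was higher in region 4 than in region 3 in each of the 4 rats. Hmmr encodes the hyaluronan-binding protein RHAMM and is known also as a mitotic spindle protein. It stood at 1.69 and 1.43 FPKM in the controls and 1.48 and 1.91 in the stimulated rats of region 1, and at 1.53 and 1.32 in the controls and 1.57 and 1.63 in the stimulated rats of region 2. Over the 12 cord libraries it had a median of 1.20 and ran from 1.04 to 1.55, so the tissues overlapped. By limma it was the 1 gene of the 6 tested that was higher in white matter (0.35 ± 0.09 SE, adjusted p = 0.0018), where 25% of all genes were. Neither region 1 against region 2 nor any pair of cord regions passed for Hmmr, with adjusted p from 0.30 to 0.81. The proliferation list went the other way: 4 of its 6 genes were lower in white matter, as were 47.1% of all genes, and 0 higher, and its sum averaged 7.13, 4.53, 5.22, 10.6 and 8.20 FPKM in regions 1 to 5. The closest genes to Hmmr over the 20 libraries were Id2, an inhibitor of basic helix-loop-helix factors, at r = 0.904, Incenp, a subunit of the chromosomal passenger complex, at 0.898, and Nipa2 at 0.898.

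The 3 synthases were scarce in every region. Has1, Has2 and Has3 reached 1 FPKM in 0 of 20 libraries, so none entered the main test, and their summed level averaged 1.39 in region 2 to 1.86 FPKM in region 5. Has2, the synthase known for long chains, stood at 0.253 and 0.220 in the controls and 0.261 and 0.820 in the stimulated rats of region 1, and at 0.174 and 0.124 in the controls and 0.146 and 0.369 in the stimulated rats of region 2. In the 12 cord libraries it had a median of 0.559 and ran from 0.379 to 0.953. Outside the second stimulated rat, every white matter library was below every cord library.

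With the filter lowered to 0.5 FPKM, which kept 17102 genes and was chosen after the data had been seen, Has2 was lower in white matter (-1.20 ± 0.24 SE, limma, adjusted p = 0.000197), as was Has3 (-0.39 ± 0.10 SE, adjusted p = 0.0023), against a background of 70.1% of all genes that passed in either direction. After quantile normalization Has3 no longer passed (-0.15, adjusted p = 0.183). Has3 lay between 0.448 and 0.895 FPKM in every library. Has1 leaned the other way, with a log2 difference of 0.35 that did not pass (adjusted p = 0.069), although it did after quantile normalization (0.58, adjusted p = 0.0032) and upper-quartile scaling (0.44, adjusted p = 0.0378), with a mean per region and arm (adjusted p = 0.0329) and without the second stimulated rat (adjusted p = 0.0494). It averaged 0.624, 0.612, 0.539, 0.520 and 0.448 FPKM in regions 1 to 5, the reverse of the order of the Has3 means. The makeup of the summed synthases accordingly shifted: Has2 made up 14.1% ± 5.81 of the sum in region 2 and 36.3% ± 7.68 in region 5 (SD, n = 4), and Has1 44.2% ± 5.39 and 23.4% ± 6.81. Read numbers are not part of FPKM, so how many reads stand behind these low values is unknown.

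Of the 3 hyaluronidases, only Hyal1 separated the tissues. Hyal1, the lysosomal enzyme, ran from 2.42 to 4.04 FPKM over the 8 white matter libraries, with a median of 3.21, and from 6.34 to 11.1 over the 12 cord libraries, with a median of 8.84. The tissues did not overlap, as was the case for 27.1% of all genes. The limma difference was -1.43 ± 0.10 (SE, adjusted p = 1.27e-10), and Hyal1 passed in each of the 6 pairs of a cord and a white matter region, with adjusted p of 3.85e-06 or less. In those pairs, regions 3, 4 and 5 against region 1 and then against region 2, 47.1%, 52.6%, 58.3%, 56.8%, 66.6% and 69.3% of all genes passed in either direction, and Cd44 passed in 5 of 6. Within the cord, Hyal1 was higher in region 4 and in region 5 than in region 3 by 0.32 and 0.39 on the log2 scale, with limma adjusted p of 0.14 and 0.13, or 0.0341 and 0.0338 with the animal as a block.

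Hyal2, anchored at the cell surface and known to make the first cuts in long chains, had the narrowest range of region means of the 9 genes with all rats, 1.26-fold. Without the second stimulated rat its range was 1.45-fold, wider than those of Hmmr, 1.34-fold, and Hyal3, 1.39-fold. With all rats the Hyal2 means ran from 4.69 in region 2 to 5.93 FPKM in region 4. White matter and cord differed by -0.09 ± 0.08 (SE, limma, adjusted p = 0.33), a difference whose sign turned with quantile normalization (0.02). Without the second stimulated rat it was -0.19 and passed, with a limma adjusted p of 0.0333, where 11751 of all genes passed in place of 10977. Of the pairs of regions, Hyal2 passed in 4 against 2 (0.33, limma, adjusted p = 0.0243) and in 5 against 2 (0.30, adjusted p = 0.0394). It was higher in region 1 than in region 2, and in regions 4 and 5 than in region 3, in 4 of 4 rats, without passing (adjusted p = 0.16, 0.12 and 0.23). Hyal3, whose own enzyme activity is less well established, was lower in white matter by 0.31 ± 0.09 on the log2 scale (limma, adjusted p = 0.0033), with values of 2.24 to 3.73 in white matter and 2.78 to 4.14 in cord that overlapped. After quantile normalization that difference no longer passed (adjusted p = 0.106). Hyal1 and Hyal3 lie beside each other on rat chromosome 8, on the same strand, and their RefSeq spans overlap in GRCr8. How reads were divided between them is not stated in the sources used here, so both values are uncertain to that extent.

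As a result the makeup of the summed hyaluronidases differed between tissues. Hyal1 made up 27.4% ± 3.22 of the sum in region 1 and 29.1% ± 4.80 in region 2, and 45.9% ± 4.27 and 49.7% ± 3.33 in regions 3 and 4 (SD, n = 4). In region 5 it made up 49.6%, with single libraries at 48.1 to 51.7%. The ratio of Hyal1 to Hyal2 was below 1 in each of the 8 white matter libraries, at 0.543 to 0.832, and above 1 in each of the 12 cord libraries, at 1.28 to 1.92. The closest gene to Hyal1 over the 20 libraries was Itgav, the integrin alpha V chain, at r = 0.989, followed by Bace2 at 0.985 and LOC100910872 at 0.982. For Hyal2, Shisa5 at 0.947 and Slc12a9 at 0.946 were among the closest. For Hyal3 they were LOC100911990 at 0.895, Tmeff2 at 0.887 and Alg1 at 0.874.

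Tnfaip6 encodes TSG-6, a secreted protein known to transfer heavy chains of the inter-alpha-inhibitor family onto hyaluronan. It was highest in regions 5 and 4. Region 5 held 6.28 and 15.7 FPKM in controls and 4.92 and 5.07 after stimulation, and region 4 held 6.55 and 11.2 in controls and 5.46 and 3.08 after stimulation. Region 3 held 2.21 and 3.38 in controls and 2.12 and 1.72 after stimulation. The second control rat was the highest in each of the 3 cord regions. In white matter, region 1 held 2.23 and 2.11 in controls and 3.39 and 5.06 after stimulation, and region 2 held 1.00 and 0.710 in controls and 0.855 and 2.62 after stimulation. Tnfaip6 reached 1 FPKM in 18 of 20 libraries, and the 2 below it were both from region 2.

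White matter held less Tnfaip6 than cord by limma (-1.32 ± 0.29 SE, adjusted p = 0.00049). The log2 difference was -0.83 without the second control rat and -1.85 without the second stimulated rat. That stimulated rat ran against it. Its regions 1 and 2 held 5.06 and 2.62 FPKM, and its regions 3, 4 and 5 held 1.72, 3.08 and 5.07. In all, of the 6 genes tested between the tissues, 4 were lower, 1 was higher and 1 did not pass, against 47.1% of all genes lower and 25% higher, with a median log2 difference of -0.81 against -0.18 for all genes. Tnfaip6 was higher in region 4 than in region 3 in each of the 4 rats, 2.60-fold on average (1.38 ± 0.45 SE, limma, adjusted p = 0.0381), and higher in region 5 than in region 3 in each of the 4, 3.08-fold (1.62 ± 0.45 SE, adjusted p = 0.0472). It was the 1 gene of the 6 tested that passed in either contrast. Both calls rest on 3 of the 4 animals: without either control rat or without the first stimulated rat, the adjusted p was 0.101 to 0.191 for region 4 and 0.118 to 0.222 for region 5. With no filter on low values it was 0.0999 for region 4 and 0.12 for region 5. For region 5 it was also 0.0504 with the animal as a block and 0.0513 after upper-quartile scaling. Between regions 1 and 2 the difference was 1.42 ± 0.45 (SE, limma, adjusted p = 0.056), positive in 4 of 4 rats, and it passed without the second stimulated rat (1.57, adjusted p = 0.0111) and with a mean per region and arm (adjusted p = 0.0307).

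**Figure D3:**
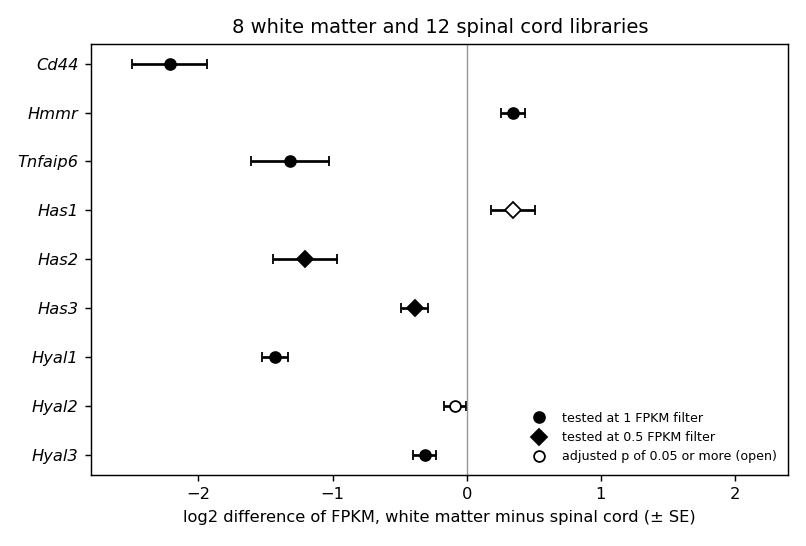
Log2 difference of FPKM between 8 white matter and 12 spinal cord libraries for each gene, with its SE from limma; filled symbols passed, open symbols did not, and diamonds mark the genes tested with the lower filter. Cd44 at -2.22, Hyal1 at -1.43, Tnfaip6 at -1.32 and Has2 at -1.20 lie farthest to the left, while Hmmr at 0.35 lies to the right of 0.

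The closest genes to Tnfaip6 over the 20 libraries were Dram2, a lysosomal membrane protein of autophagy, at r = 0.913, AABR07030773.1 at 0.913 and Chdh, the choline dehydrogenase, at 0.909. In the order of region means, 5, 4, 1, 3 and 2, no difference between neighbours passed: the limma adjusted p was 0.75 between regions 5 and 4, 0.0735 between 4 and 1, 0.49 between 1 and 3 and 0.0598 between 3 and 2.

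Stimulation was compared with control within each region, in 4 libraries, to ask whether current through the implant moved these genes. With 2 rats against 2, an exact permutation test cannot go below p = 0.333, and limma passed 0 of the 6 genes tested in each of the 5 regions. In regions 1 to 4 limma passed 0% of all genes, and in region 5 it passed 0.0197%, while regions 1 to 5 had 828, 215, 522, 341 and 546 genes below an unadjusted p of 0.05. At an unadjusted p under 0.05 there were 2 genes in region 1, Cd44 and Tnfaip6, and 0 in each of the other regions. In region 1 the stimulated libraries lay above both controls for Cd44 (log2 difference 1.37 ± 0.25 SE, adjusted p = 0.71), for Tnfaip6 (0.93 ± 0.26 SE, adjusted p = 0.71) and for Hyal2 (adjusted p = 0.71). That makes 3 of the 6 genes tested without overlap, where 40.6% of all genes had none.

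In the same libraries the microglia and macrophage sum was 214 and 154 in controls and 280 and 453 after stimulation, and the astrocyte sum 645 and 695 in controls and 1071 and 1223 after stimulation. Their part in the Cd44 and Tnfaip6 values was not tested. Without the second stimulated rat, the log2 difference was 1.06 for Cd44 and 0.64 for Tnfaip6. Without the first stimulated rat it was 1.69 for Cd44 and 1.22 for Tnfaip6. That leaves 1 stimulated library, from the rat that stood apart in white matter, assumed to vary like the controls. In region 2 both differences rested on the second stimulated rat: Cd44 differed by 1.20 ± 0.89 (SE) with it and by 0.03 without it, and Tnfaip6 by 0.83 ± 0.66 with it and by 0.02 without it. Has2 in region 1 was similar, with a log2 difference of 0.97 ± 0.65 (SE, filter at 0.5 FPKM) and of 0.14 without that rat.

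In the cord, Cd44 differed little between arms, with log2 differences of 0.02, -0.25 and 0.12 in regions 3, 4 and 5. Tnfaip6, in contrast, had lower values after stimulation in each cord region, with both stimulated libraries below both controls: the log2 differences were -0.52 ± 0.28 (SE), -1.06 ± 0.42 and -0.99 ± 0.48 in regions 3, 4 and 5. Without the second control rat they were -0.21, -0.68 and -0.33. The limma adjusted p was 0.96, 1 and 1. Regions come from the same 4 rats, so these are not independent of each other. The difference between the effect in region 1 and that in the cord, taken within animals, was 1.45 ± 0.40 (SE) for region 3, 2.00 ± 0.59 for region 4 and 1.92 ± 0.46 for region 5, with unadjusted p of 0.0166, 0.0264 and 0.0044 and limma adjusted p of 0.88, 0.52 and 0.89. For Cd44 the same differences were 1.35, 1.63 and 1.26, with unadjusted p of 0.0129, 0.0213 and 0.0015 and limma adjusted p of 0.88, 0.52 and 0.73. Between regions 1 and 2 the effect differed by 0.18 ± 0.61 (SE) for Cd44 and 0.11 ± 0.44 for Tnfaip6, with adjusted p of 0.95 and 0.96, and 0% of all genes passed by limma, with 575 at an unadjusted p under 0.05.

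**Figure D4:**
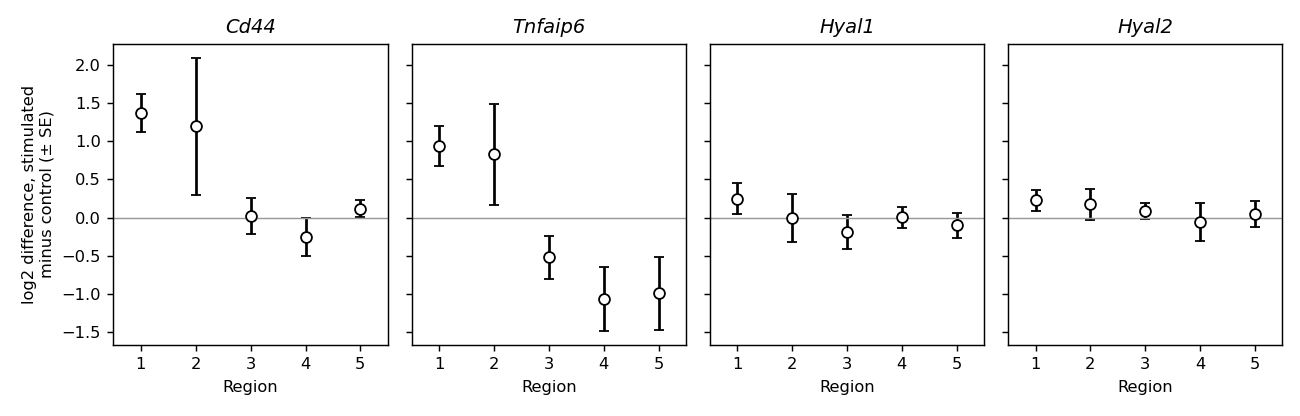
Log2 difference of FPKM, stimulated minus control, in each region for Cd44, Tnfaip6, Hyal1 and Hyal2, with its SE from limma (2 against 2 libraries per point, and no point passed). Tnfaip6 lies at 0.93 in region 1 and at -0.52, -1.06 and -0.99 in regions 3, 4 and 5, while Hyal1 and Hyal2 lie within 0.25 of 0 in all 5 regions.

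Values without overlap between arms were also seen outside region 1. They numbered 1 of 6 genes tested in region 2 (Hmmr, 27% of all genes), 2 in region 3 (Hyal3 and Tnfaip6, 29.9%), 1 in region 4 (Tnfaip6, 20.2%) and 1 in region 5 (Tnfaip6, 24.6%). These shares do not cover the synthases, which the main filter did not keep. Both stimulated libraries lay above both controls for Has1 and Has2 in region 1, Has2 in region 3 and Has1 in region 5. Has1 in region 5 stood at 0.231 and 0.351 FPKM in controls and 0.592 and 0.617 after stimulation, a log2 difference of 1.09 ± 0.25 (SE, filter at 0.5 FPKM, limma, adjusted p = 1).

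Genes that act beside these 9 were counted in 5 lists. Of the 5 other hyaluronan receptors tested, of 6 listed, 3 were lower in white matter than in cord and 0 higher, with a median log2 difference of -0.93 against -0.18 for all genes. All counts for this contrast are read against the 47.1% of all genes lower and 25% higher. The largest difference was that of Tlr4, a Toll-like receptor for hyaluronan fragments, at -1.20 ± 0.24 (SE, limma, adjusted p = 0.000173). Of the 9 ligands, cytoskeletal linkers and sheddases of Cd44 tested, of 11 listed, 6 were lower (47.1% of all genes), most of all Spp1, which encodes osteopontin, at -2.66 ± 0.73 (adjusted p = 0.0031). Its values were led by region 1, with a mean of 172 FPKM against 21.2 in region 2 and 57.6 to 154 in cord. Ezr, the linker ezrin, was the 1 higher, at 0.77 ± 0.09.

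Degradation genes went both ways, as did all genes. Cemip, a hyaluronan-binding protein needed for depolymerization, was higher in white matter (1.57 ± 0.16 SE, limma, adjusted p = 5.44e-08), as was the cell surface hyaluronidase Tmem2. The lysosomal enzymes Gusb and Hexa, which trim the ends of fragments, were lower, Gusb by the most at -1.06 ± 0.21. So 2 of 5 tested, of 8 listed, were higher and 3 lower, where 25% and 47.1% of all genes were. Of the 7 genes that make the sugar nucleotide precursors, 4 were lower and 0 higher, with a median log2 difference of -0.20 against -0.18 for all genes, led by Pgm3, a phosphoacetylglucosamine mutase, at -0.84 ± 0.06. Of the 11 matrix partners tested, of 15 listed, 6 were lower (47.1% of all genes), led by the link protein gene Hapln2 (-2.98 ± 0.10 SE), with means of 60.8 to 73.5 FPKM in cord and 8.42 to 8.88 in white matter. The 1 higher was Hapln1, another link protein gene (1.23 ± 0.10).

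At the lesion against rostral cord, Hyal1, Hyal2 and Hyal3 did not pass (limma, adjusted p = 0.14, 0.12 and 0.35). Of the degradation list, written with earlier results known, 4 of 5 genes tested were higher and 0 lower, where 6.78% of all genes were higher. The median log2 difference of the list was 1.21 against -0.02 for all genes. Gusb led with 1.54 ± 0.33 (SE, limma, adjusted p = 0.0035) and means of 8.90 in region 4 and 2.90 FPKM in region 3, and Cemip and Hexa also passed. In the same contrast 3 of 8 microglia and macrophage genes passed, and that list summed to 264 to 596 in region 4 and 119 to 191 in region 3. Its part in these differences was not tested. Layn, the receptor layilin, was higher at the lesion (0.52 ± 0.17 SE, adjusted p = 0.0357), as was Mmp14, a membrane protease known to shed Cd44 (1.12 ± 0.36 SE, adjusted p = 0.0354), and Hapln1 was lower (-0.67 ± 0.16 SE, adjusted p = 0.0083). None of the 7 precursor genes passed.

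Between the hemispheres, 5 of the 9 Cd44 partners tested were higher under the implant and 0 lower, where 6.86% and 1.76% of all genes were, among them Mmp14 (2.13 ± 0.36 SE, limma, adjusted p = 0.0030) and Spp1 (3.96 ± 1.13 SE, adjusted p = 0.0376). Also higher were 1 receptor, Stab1, 1 precursor gene, Pgm3, and 2 matrix genes, Vcan and Ncan. These 6 were named after their values were seen. The lists were tested with all 4 rats only. Of all genes, 1310 passed in that contrast, and 95, 97 and 26 without the first control, the second control and the first stimulated rat. Degradation genes did not pass in that contrast, 0 of 5, although 4 had an unadjusted p under 0.05, as had 3827 of all 15210 genes. Caudal against rostral cord passed 0 genes of all 5 lists by limma, with 1 of 5 receptors, 3 of 5 degradation genes, 3 of 7 precursor genes, 2 of 11 matrix genes and 5 of 9 partners at an unadjusted p under 0.05, as had 3763 of all 15210 genes.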

How the data were processed

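The authors depleted ribosomal RNA, sequenced paired reads of 51 bp, aligned them to Rnor6 with TopHat2 2.1.0 and estimated levels with Cufflinks 2.2.1. The submitters' processing notes also name FastQC and MultiQC 1.6. The authors deposited FPKM values per gene, with values under 0.1 raised to 0.1. No member was at that floor in any library. The annotation's version and the strand setting of the counting are not given in the sources used here. The labels place region 5 at about cervical levels 4 to 6. The study gives read totals per library, which were not used here. The table carries no reads per gene, so no counting interval is given, and 2 animals per arm limit the precision.

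The 9 genes and all lists were chosen with earlier results of these data known. FPKM floored at 0.1 were log2-transformed and genes with 1 FPKM in any of 20 libraries kept, which left 6 of the 9. limma 3.58.1 (R 4.3.3, eBayes with trend) was fitted over all 15210 genes kept: for stimulation in the 4 libraries of a region, for regions in 1 model of 20 libraries, and for differences of effects on differences within animals. Two-sided p-values were adjusted over all these genes (Benjamini-Hochberg), with a threshold of 0.05. Regions share animals by design, from the sample titles. Deviations of the same rat in regions 1 and 2 correlated at 0.588 on average, those of regions 4 and 3 at 0.208, of regions 5 and 3 at 0.125 and of regions 4 and 5 at 0.028. The animal as a block was an alternative. Others were log2(FPKM + 1), no filter, quantile normalization, upper-quartile scaling, other samples or terms in the model and leaving out each animal. The main fit was tried on simulated data in which libraries varied independently, with no part shared by rat. This covered stimulation in region 1, white matter against cord, region 1 against region 2 and region 4 against region 3. It also covered the difference of effects between regions 1 and 2. The alternatives were not simulated. Likeness was ranked by Pearson r of log2 FPKM over 20 libraries: 5 genes were named for Cd44 and 3 for each other gene kept. Some named items are not reported here. From each list the gene with the largest change that passed in each direction was named for white matter against cord and for region 4 against region 3. All values of differences are on the log2 scale, and values near the floor understate them. Promoter windows are RefSeq sequences in GRCr8. Figures used Python 3.11.15 with matplotlib 3.10.9.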

Additional observations from a re-analysis of the deposited data

Results flagged for a closer look

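Among the 45 groups of 4 libraries formed by 9 genes and 5 regions, 4 had a library far from the other 3, where chance gives about 1 in 20. The second stimulated rat gave 3 of them. In region 2 its Cd44 was 9.719 FPKM against 1.72 to 2.07 in the others, and its Tnfaip6 was 2.624 against 0.710 to 1.00. In region 1 its Has2 was 0.8199 against 0.220 to 0.261. Its microglia and macrophage sum in region 2 was 484 against 57.1 to 74.6. The second control rat gave the other, with Tnfaip6 at 15.68 in region 5 against 4.92 to 6.28, while its microglia and macrophage sum there, 243, was the lowest of the 4. The cause was not tested.

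Tnfaip6 was higher in both stimulated rats than in both controls in region 1 and lower in both in regions 3, 4 and 5. The difference of these effects, region 1 minus the cord region, was 1.453 for region 3, 1.997 for region 4 and 1.923 for region 5 on the log2 scale. Tested by limma on differences within animals, the adjusted p was 0.88, 0.52 and 0.89, so none of the 3 passed. Without the second stimulated rat the effect was 0.64 in region 1 and -0.37, -0.65 and -1.01 in regions 3, 4 and 5. Without the second control rat, the highest in each cord region, the cord effects were -0.21, -0.68 and -0.33, against -0.52, -1.06 and -0.99 with all 4 rats.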

How the results depend on the processing

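Over all alternatives 334 values for single genes kept direction and side of the threshold, 14 newly passed, 15 no longer passed and 7 changed sign. With 2 rats an arm, leaving out a rat leaves a lone library assumed to vary like the others. The reads behind a single value are not in the table. The cause of each change was not tested, except that fewer animals or more genes tested are part of some alternatives. The filter at 0.5 FPKM and crossed pairs were chosen after seeing the data.

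Of the 6 genes tested, the number that passed between regions 4 and 3 was 1, and it became 0 with no filter, 3 after quantile normalization, 2 after upper-quartile scaling and 2 with the animal as a replicate block. Between regions 5 and 3 it went from 1 to 0 with no filter and to 0 after upper-quartile scaling. Between regions 1 and 2 it went from 1 to 2 with a mean per region and arm. Leaving out 1 rat gave 0 to 2 between regions 1 and 2, 0 to 3 between regions 4 and 3, 0 to 2 between regions 5 and 3 and 0 to 1 for stimulation in region 1. In each of the 3 region contrasts the count was 0 without the first control, the second control or the first stimulated rat, and the highest without the second stimulated rat. The Hyal2 difference between tissues turned to 0.01784 after quantile normalization. Leaving out 1 rat moved the Cd44 stimulation difference between -0.2705 and 0.3123 in region 3 and between -0.5557 and 0.05154 in region 4. It moved the difference of effects between regions 1 and 2 from -0.6747 to 1.027 for Cd44 and from -0.4154 to 0.626 for Tnfaip6.

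Control and stimulated rats share replicate numbers only. The deviations of same-numbered rats correlated at -0.213, -0.097, -0.106, 0.321 and -0.164 in regions 1 to 5, so the numbers were not taken to pair them. A replicate block passed 1 of 6 genes in region 5, Tnfaip6, in place of 0, and moved all genes passed there from 3 to 443. Crossed pairs passed 118 in region 4 in place of 0. The animal as a block between regions changed the calls given beside their results and no other.

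All genes passed for stimulation numbered 0, 0, 0, 0 and 3 in regions 1 to 5. With no filter they numbered 6, 1, 3, 0 and 22, and with all libraries in one model 1, 1, 1, 1 and 18. In region 5 log2(FPKM + 1), upper-quartile scaling, the 0.5 FPKM filter and crossed pairs each gave 0. Leaving out 1 rat gave up to 228, 548, 140 and 147 in regions 1, 2, 4 and 5, reached without the first stimulated rat in regions 1, 2 and 5 and without the second control rat in region 4, and 0 in region 3. The difference of effects between regions 1 and 2 went from 0 to 2 with no filter, 17 with the block and up to 113 with 1 rat left out (the first stimulated). Between regions 1 and 2, 1310 became 698 with no filter, 2247 after upper-quartile scaling and 26 to 3674 with 1 rat left out. Between regions 4 and 3, 2984 became 4842 after quantile normalization, 4603 after upper-quartile scaling and 523 to 4909. Between regions 5 and 3, 657 became 1109 and 1169 and 54 to 1237 in the same order. Between regions 4 and 5, 1216 became 578 with no filter, 470 after quantile normalization, 627 after upper-quartile scaling, 1966 with the block, 522 with a mean per region and arm and 5 to 1097 with 1 rat left out.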
